A study of Arabidopsis thaliana with 6 samples.

Results

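Berberine bridge enzyme-like genes encode flavin-dependent oxidases, most of which carry a secretion signal. They were followed in Arabidopsis thaliana seedlings (Columbia) that grew with or without scutellarin, a glucuronide of a flavone found in skullcap plants. The set held 10 loci, with AT1G26390 as the lead gene, and a member was measured only where a probe set of the array named that gene and no other. This held for 7 of the 10 loci, out of 13286 genes measured in this way and 22746 probe sets in all. The lead gene was selected on its log2 change in these same arrays, where it was among the largest falls with scutellarin, so the treatment values of the members below are a description and are not tested as evidence. A threshold passed by a member is given only to place it in the fit.

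Seedlings grew on filter paper wetted with 1% DMSO (mock) or with 1% DMSO and 100 µM scutellarin. Cold treatment in the dark lasted 2 days at 4 °C, growth followed at 25 °C under 12 h days, and RNA was taken after 10 days of treatment. Each group held 3 Affymetrix ATH1 arrays from independent experiments, each on 100 pooled whole seedlings, and no mutant or transgenic line was used. Each value is a linear array intensity, deposited after scaling to a common level, so the same probe set can be compared between arrays but different genes cannot be ranked by level.

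The family is named after the berberine bridge enzyme of poppies, which closes a ring in the synthesis of benzylisoquinoline alkaloids, compounds that Arabidopsis does not make. In Arabidopsis, members characterised so far oxidise other substrates and usually pass electrons to oxygen, which gives hydrogen peroxide. Some oxidise oligogalacturonides or cellodextrins, fragments of the cell wall that act as danger signals, others oxidise the monolignol precursors of lignin, and 1 acts in the synthesis of a cyanogenic indole defence compound. Several of these genes are known for induction by pathogens and elicitors, and many lie next to each other in tandem runs.

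The treatment went with a large drop in AT1G26390, a smaller one in AT1G26410 and lower values of AT1G26380, which all lie in one tandem run, while their neighbour AT1G26420 and the members AT1G30700 and AT4G20830 elsewhere had intensities that overlapped between the groups. Of the 7 measured members, 6 lay above a filter that left out the lowest 30% of probe sets by mean log2 intensity. Scutellarin was compared with mock in limma over all 15922 probe sets kept, with an adjusted p under 0.05 as the threshold for a call. Of the 6 members, 2 were called lower, where 9.11% of all kept probe sets were called lower, and 0 were called higher, where 10.3% of all were. At an unadjusted p under 0.05 limma placed 3 members lower and 0 higher, where 5269 of the 15922 kept probe sets passed in either direction. The groups did not overlap for 3 of the 6, all lower with scutellarin, where 37.1% of all kept probe sets had no overlap in either direction and 18.6% had none with scutellarin lower. The median log2 change of the 6 was -0.41, against -0.04 over all kept probe sets. Over the 7 measured members without the filter it was -0.30. That last median is the unfiltered value of AT1G26400, the member below the filter, whose SE was 1.29, so nothing is read from it. These counts rest on the contrast from which the lead gene was picked, and nothing is read from them.

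**Figure D1:**
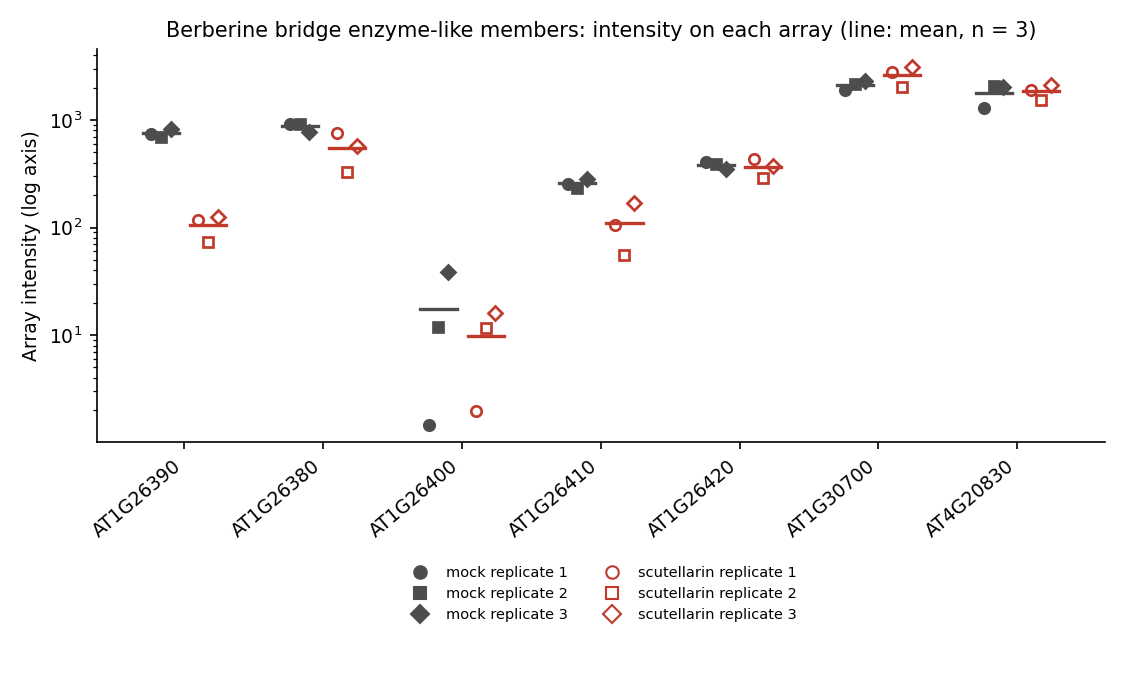
Intensity of the 7 measured members on each of the 6 arrays, on a log axis, with mock arrays as filled grey and scutellarin arrays as open red symbols and horizontal lines for the group means (n = 3). AT1G26390 fell from 702 to 823 on the mock arrays to 73.5 to 126 with scutellarin, whereas AT1G26420, AT1G30700 and AT4G20830 overlapped between the groups.

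AT1G26390 encodes an oxidase of the family for which no substrate is stated here. Its intensity was 747, 702 and 823 on mock replicates 1 to 3 and 117, 73.5 and 126 on scutellarin replicates 1 to 3. All 3 scutellarin arrays lay far below all 3 mock arrays, and the mock arrays lay close together. The mean was 757.6 ± 61.1 (SD, n = 3) in mock and 105.4 ± 27.9 with scutellarin, which is 13.9% of the mock mean. The log2 change was -2.88 ± 0.21 (SE), the eighth lowest among all kept probe sets. It stayed between -3.03 and -2.54 over 15 alternative settings, which included leaving out each array.

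AT1G26410, an oxidase gene of the same tandem run, read 256, 233 and 283 in mock and 107, 55.5 and 171 with scutellarin. Its groups did not overlap either, and the scutellarin arrays were much more spread than the mock arrays. The means were 257.4 ± 24.6 and 111.1 ± 57.9 (SD, n = 3), a log2 change of -1.35 ± 0.33 (SE). The change was -0.93 without scutellarin replicate 2 and -1.74 without scutellarin replicate 3, and the call was lost without mock replicate 3 or with no variance trend.

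AT1G26380, also called FOX1, acts in the synthesis of the cyanogenic indole compound and is widely used as a marker of elicitor response. Its intensity was 917, 922 and 774 in mock and 751, 328 and 574 with scutellarin. The groups were apart by a narrow margin, since the highest scutellarin array lay just below the lowest mock array. The log2 change was -0.74 ± 0.24 (SE), with a 95% interval from -1.27 to -0.20, and it was not called. With all 6 arrays it was called with the replicate block, with 32 added before log2 and with the lowest 50% left out, so it lay at the edge of the threshold. It was -1.001 and called without scutellarin replicate 1, and -0.40 and not called without scutellarin replicate 2, so its size rests on which scutellarin arrays enter.

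AT1G26420 closes the run on its other side. It read 410.4, 389 and 353 in mock and 437, 291 and 374 with scutellarin, so the groups overlapped. The log2 change was -0.08 ± 0.18 (SE), with an interval from -0.47 to 0.31, and it was 0.075 without scutellarin replicate 2. AT1G26400, in the middle of the run, lay below the filter at 1.47, 12.0 and 38.9 in mock and 1.97, 11.6 and 16.002 with scutellarin. Its mock arrays alone span the whole range of its values, so no change is read for it.

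AT1G30700 lies in a second tandem run on the same chromosome. Its intensity was 1910.0, 2168 and 2315 in mock and 2802, 2014 and 3104 with scutellarin. Of its scutellarin arrays 1 lay within the mock range and the others above it. The log2 change was 0.29 ± 0.16 (SE), with an interval from -0.06 to 0.64. Without scutellarin replicate 2 it was 0.47 and passed the threshold, and without scutellarin replicate 3 it was 0.16 and did not.

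AT4G20830, known as OGOX1, oxidises oligogalacturonides, the pectin fragments released when the wall is broken. It read 1287.5, 2083 and 2033 in mock and 1918, 1519.65 and 2102 with scutellarin. The groups overlapped almost fully, with a log2 change of 0.06 ± 0.19 (SE) and an interval from -0.36 to 0.47. The sign turned without mock replicate 1, to -0.17, and without scutellarin replicate 3, to -0.04.

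The remaining 3 members have no value here. AT1G30720 and AT1G30730 share a probe set that names both genes, and AT2G34790 (MEE23), which encodes a monolignol oxidoreductase, was not analysed here. None of the 7 measured probe sets carried a suffix that marks possible cross-hybridisation. Genes of a tandem run are related in sequence, and whether their probe sets read each other's transcripts was not tested.

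**Figure D2:**
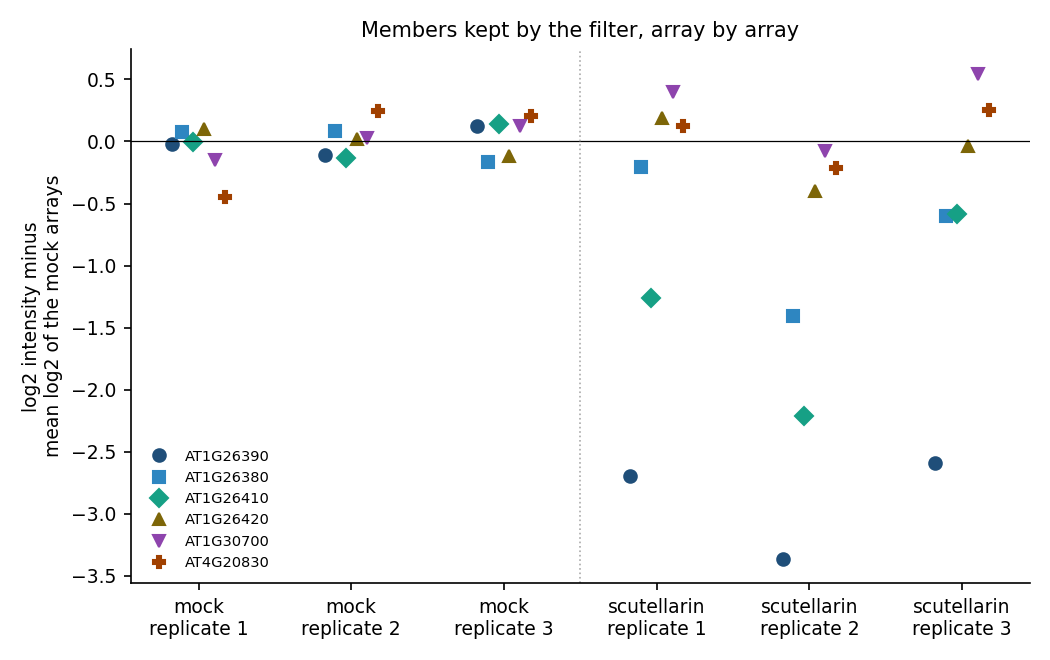
Difference of each kept member's log2 intensity from its own mean over the mock arrays, array by array. On scutellarin replicate 2 each of the 6 members had its lowest value of the 3 scutellarin arrays, from -3.36 for AT1G26390 to -0.08 for AT1G30700.

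The kept members shared the scutellarin array on which they were lowest. Scutellarin replicate 2 was the lowest of the 3 scutellarin arrays for 6 of the 6 kept members, whether or not the member differed from mock. Over all kept probe sets that array was the lowest in 27.99% and the highest in 38.6%. It also had the highest median intensity of all arrays, 162.3, against 145.9 and 146.1 on scutellarin replicates 1 and 3. The part of that offset in these orders was not tested. Relative to the mock mean, AT1G26380 stood at a log2 difference of -0.21, -1.40 and -0.60 on scutellarin replicates 1 to 3. AT1G26410 stood at -1.27, -2.21 and -0.59. This was noticed after the values were seen and carries no test. In 8 kept family genes outside the set, replicate 2 was the lowest scutellarin array for 0 and the highest for 6.

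The rest of the family was read from 17 further loci, of which 15 were named alone by a probe set and 8 passed the filter. AT1G01980 and AT4G20840, for further oligogalacturonide oxidases, were not analysed here. Among these 8, limma called 2 lower, where 9.11% of all kept probe sets were called lower and 19.4% were called in either direction. The 1 called higher, AT1G30760, passed the filter only through its scutellarin arrays, so that call is not counted as a result. The median log2 change of the 8 was -0.31. The groups did not overlap for 4 of the 8, beside 37.1% of all. At an unadjusted p under 0.05 in limma, 2 were lower and 2 higher, where 5269 of the 15922 kept probe sets passed in either direction. AT1G30760 enters that median and is 1 of the 4 without overlap and 1 of the 2 higher. None of these counts stands in for a test of the family against other genes.

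AT5G44400 had the largest fall of the 8. It read 119.8, 106 and 109 in mock and 36.0, 45.5 and 37.6 with scutellarin. Every scutellarin array lay below every mock array by a wide margin, and both groups were tight. It fell by 1.495 on the log2 scale, ± 0.303 (SE, limma adjusted p = 0.00484), and with 32 added before log2 the change was -1.002.

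AT1G30760 went the other way. It encodes an oxidase that acts on monolignols, as the AT2G34790 product does. Its intensity was 8.18, 37.5 and 5.60 in mock and 201, 174 and 82.0 with scutellarin. The groups did not overlap, but the mock values were close to the lowest intensity of the array, 1, so the size of the difference is uncertain. The log2 difference was 3.57 ± 0.66 (SE), and 1.90 with 32 added before log2. It passed the filter only through its scutellarin arrays and dropped below it without scutellarin replicate 1 or 2, so its call is given as a description. With no filter, where no probe set is left out, the limma adjusted p was 0.00745.

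AT2G34810 fell by a small amount, from 148.0 ± 5.49 to 91.6 ± 5.49 (SD, n = 3). The log2 change was -0.69 ± 0.22 (SE, limma adjusted p = 0.0466), a call lost when any 1 array was left out (adjusted p = 0.0677 to 0.120), with the replicate block (0.0799) and with no filter (0.107). AT5G44380 had values of 259, 197 and 232 in mock and 263, 583 and 325 with scutellarin. Its groups were apart by a narrow margin and 1 scutellarin array stood well above the others. The change of 0.69 ± 0.26 (SE) was not called (limma adjusted p = 0.0827), but it was 0.94 and called without scutellarin replicate 1, and it was 0.36 without scutellarin replicate 2.

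The other 4 kept loci overlapped between groups and were not called. AT4G20860 encodes an oxidase of cellodextrins, the breakdown products of cellulose. It read 3011, 2444 and 2021 in mock and 1764, 2356 and 1869 with scutellarin, a log2 change of -0.31 with an interval from -0.67 to 0.04. AT4G20820, AT5G44390 and AT5G44410 had changes of -0.30, -0.25 and -0.42. The 7 loci below the filter were AT1G11770, AT1G30710, AT1G30740, AT1G34575, AT4G20800, AT5G44360 and AT5G44440. They include AT1G11770, for another oligogalacturonide oxidase, at 17.9, 41.9 and 32.3 in mock and 1.00, 13.9 and 19.5 with scutellarin, where the groups overlapped at the low end. Of the others, AT1G30740 did not overlap, at 5.59, 13.7 and 2.57 in mock and 1.76, 1.00 and 1.03 with scutellarin, values at or near the floor.

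**Figure D3:**
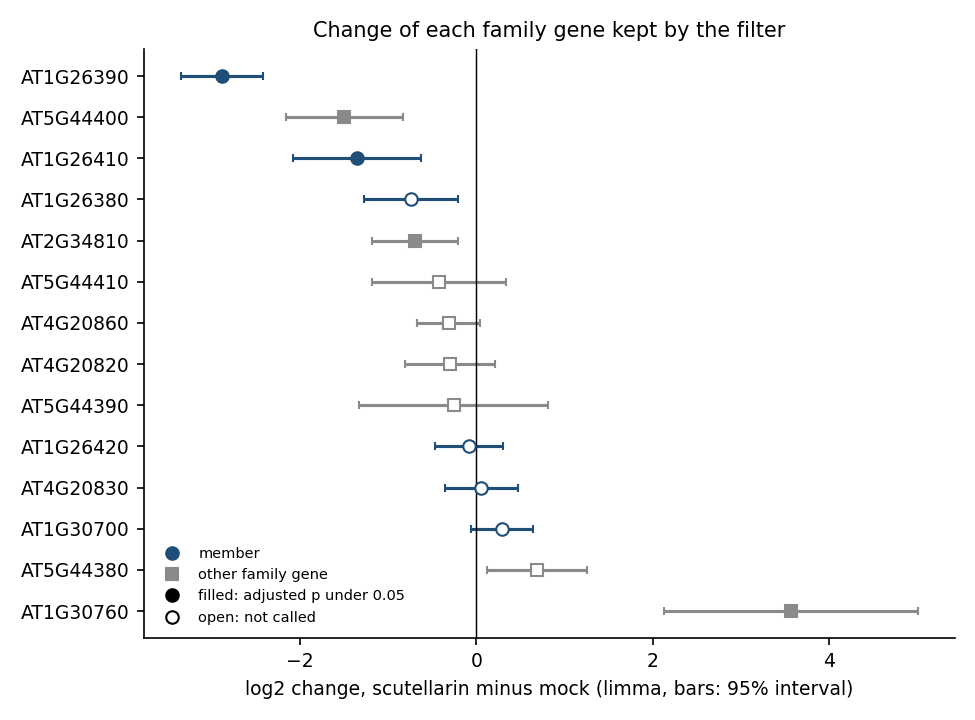
Log2 change with scutellarin of the 14 family genes kept by the filter, as points with 95% intervals from limma, for members (blue circles) and other family genes (grey squares). AT1G26390 has the lowest value at -2.88 and AT1G30760 the highest at 3.57, and filled symbols mark the 5 genes called, of which AT1G30760 passed the filter only through its scutellarin arrays.

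In gene order, neighbours of the same run differed in their values. In the run from AT1G26380 to AT1G26420, the log2 changes of the 4 kept genes in order were -0.74, -2.88, -1.35 and -0.08. The nearest measured genes outside the family were AT1G26350, which lay below the filter, and AT1G26450 at -0.03 ± 0.26 (SE), whose sign turned when any of 3 arrays was left out. The lowest value among the 4 kept genes of the run thus belonged to AT1G26390, with values nearer 0 on both sides of it. Its next neighbour AT1G26400 lay below the filter, and outside the run only AT1G26450 gave a value.

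In the run from AT1G30700 to AT1G30760 the end genes stood at 0.29 and 3.57. AT1G30750, a gene outside the family that lies between them and was named after its values were seen, rose by 1.12 ± 0.25 (SE, limma adjusted p = 0.00908), a call lost with no variance trend (0.0527). AT1G30690, just before the run, was at 0.18 ± 0.29. In the run with AT4G20830, no measured gene was called. TPP2 (AT4G20850), a peptidase gene inside it, was at -0.16 ± 0.30, with wide spread within each group. AT4G20880, beyond it, was at -0.42 ± 0.30. The fourth run, from AT5G44360 to AT5G44440, held AT5G44380 at 0.69 and AT5G44400 at -1.495 with AT5G44390 between them at -0.25.

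**Figure D4:**
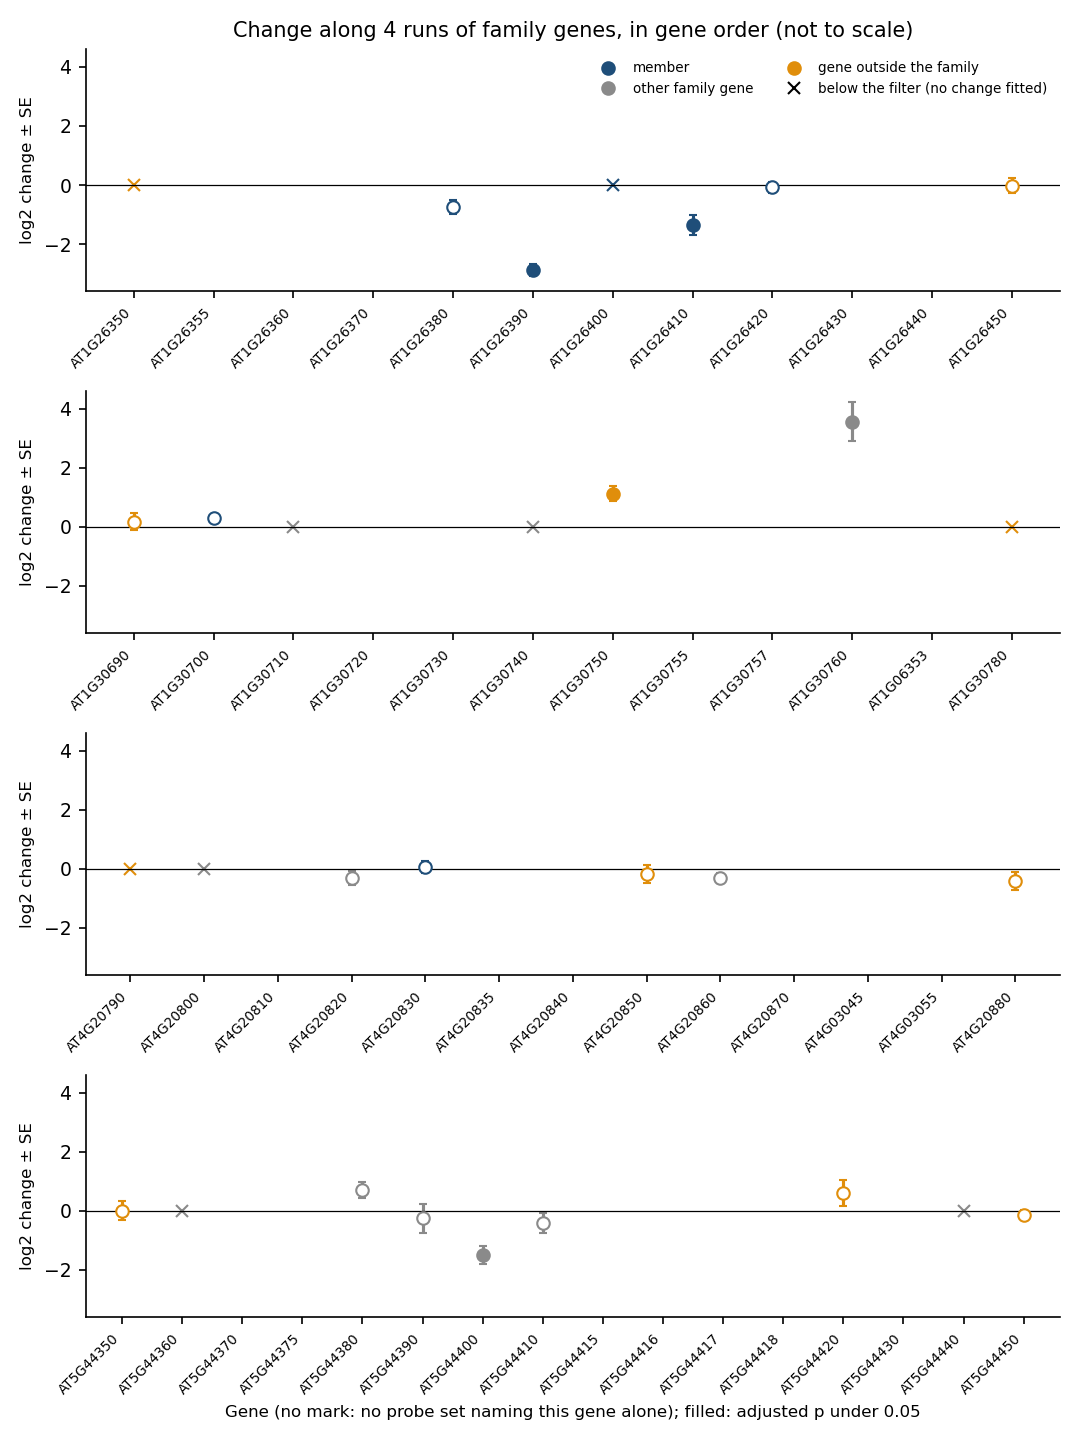
Log2 change ± SE along 4 runs of family genes, placed in the order of the RefSeq gene table and not to scale, with members in blue, other family genes in grey and genes outside the family in orange. Crosses mark genes below the filter, empty places genes that no probe set names alone, and the lowest point is AT1G26390 at -2.88.

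The genes with the most similar profile to AT1G26390 were sought among 8655 kept probe sets that name 1 gene, by Pearson's r of log2 intensity over the 6 arrays. The 5 highest were atpE, a plastid gene for a subunit of ATP synthase, at 0.998, AT3G29240 and STOMAGEN (AT4G12970), a peptide gene that promotes stomata, both at 0.997, AT2G03980 at 0.995 and CcdA (AT5G54290), a gene for a thiol-disulphide transporter of thylakoids, at 0.994. In 423 of the 8655 probe sets (4.89%) r was above 0.9. The 6 arrays span both treatment groups, and the part of r that comes from the group difference was not separated. Because AT1G26390 was selected for its fall on these arrays, the genes most like it are lower with scutellarin by that choice. Their changes and adjusted p-values below are a description and are not tested as evidence. All 5 had smaller log2 changes than AT1G26390, from -1.29 to -0.28. STOMAGEN went from 1065 ± 53.4 to 438 ± 71.9 (SD, n = 3), a log2 change of -1.29 ± 0.15 (SE, limma adjusted p = 0.000136). The change of atpE was -0.28 ± 0.10 and was not called (limma adjusted p = 0.0720), and after quantile normalization it was -0.029 (adjusted p = 0.855). Within the family r with AT1G26390 was 0.95 for AT5G44400, 0.95 for AT2G34810, 0.90 for AT1G26410 and 0.80 for AT1G26380, and it was -0.91 for AT1G30760.

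Genes of the pathways around these enzymes could be read only in part, because most were not named alone by a probe set in the probe table used. Over all kept probe sets limma called 10.3% higher and 9.11% lower, and 5269 of 15922 had an unadjusted p under 0.05. With so few genes kept per list, nothing is read from the list counts below. Of 21 listed genes of monolignol synthesis and glucosylation, which make the substrates of AT1G30760 and AT2G34790, 4 were kept, of which 1 rose, 0 fell (also 0 at an unadjusted p under 0.05 in limma) and 3 did not pass, with a median log2 change of 0.33. The riser was HCT (AT5G48930), an acyltransferase of the lignin pathway, at 1860.4, 2097.5 and 2341 in mock and 3709, 2535 and 2747 with scutellarin. All its scutellarin arrays lay above all mock arrays. Its change was 0.50 ± 0.16 (SE, limma adjusted p = 0.0408), a call lost with no filter (0.0546), median centring (0.0887), no variance trend (0.123), the replicate block (0.0538) or without any 1 array other than scutellarin replicate 2 (0.0507 to 0.120). UGT72E2 (AT5G66690), a glucosyltransferase of monolignols, read 366, 586 and 542 in mock and 741, 592 and 924 with scutellarin and was not called (0.60 ± 0.21, limma adjusted p = 0.0628), though it was without scutellarin replicate 2 (0.76, adjusted p = 0.0292). Without each of the other arrays its adjusted p was 0.0611 to 0.218.

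Of 15 listed polygalacturonases and pectate lyases, enzymes of pectin breakdown, 7 were kept, of which 1 rose, 1 fell and 5 were not called. Their median log2 change was 0.38. The pectate lyase-like gene AT1G04680 rose from 105.4 ± 8.65 to 301.5 ± 8.96 (SD, n = 3), a log2 change of 1.52 ± 0.19 (SE, limma adjusted p = 0.000174). AT5G63180, of the same family, fell from 350.5 ± 43.3 to 207.8 ± 28.2, a change of -0.76 ± 0.18 (limma adjusted p = 0.0126). Of 20 genes for the perception of and response to oligogalacturonides and microbial patterns, 3 were kept and limma called 0, with 0 at an unadjusted p under 0.05. WRKY53 (AT4G23810), a defence regulator gene, was at -0.07 ± 0.29 (SE), the median of the 3, EFR (AT5G20480), a pattern receptor gene, at -0.10 ± 0.34, both with a sign that turned when single arrays were left out, and the defensin gene PDF1.2 at 0.59 ± 0.44.

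Of 12 genes for the production and removal of hydrogen peroxide and the response to it, 2 were kept and limma called 0, with 0 at an unadjusted p under 0.05. GRX480 (AT1G28480), a glutaredoxin gene, was at 0.07 ± 0.18. The indole glucosinolate list kept 1 of 11 genes, UGT74B1 (AT1G24100), which rose by 0.52 ± 0.13 (SE, limma adjusted p = 0.0174) and lost its call when mock replicate 2, mock replicate 3 or scutellarin replicate 2 was left out (0.0505 to 0.0744). In the probe table used, which leaves 8730 probe sets unnamed, none of the 11 genes listed for camalexin and the cyanogenic indole compound, or of the 12 for salicylate defence, was named alone, so the pathway of AT1G26380 was not analysed here.

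Tissue markers differed between the groups as well, and their part in the values above was not tested. In whole seedlings, fewer cells of a type and less RNA per cell cannot be told apart. Both root and green tissue were present by their markers. Of the listed markers, 5 of 9 for root and 3 of 7 for root hair were named alone by a probe set. For green leaf this held for 3 of 15 and for seed storage for 1 of 10. Of 5 root markers, 3 were higher with scutellarin and 2 lower, and their summed intensity was 8626 to 9993 in mock and 13526 to 16192 with scutellarin. Without PYK10, which makes up most of that sum, the other 4 overlapped, at 2714 to 4144 and 3341 to 3863. The 3 root hair markers had sums of 28.5 to 76.7 and 807 to 1103. On the mock arrays they read 1.81 to 38.8, near the lowest intensity of the array, so the size of that difference is uncertain. Of the 3, 1 stayed above the filter in only 3 of the 6 fits that left out 1 array. All 3 measured green tissue markers were lower, with sums of 39360 to 42874 in mock and 26427 to 32132 with scutellarin. PSAN and PSBY, with mock means of 19444 and 20905, make up most of that sum, where LHCB4.3 had 1053. The seed storage gene PAP85 was lower, at 1518 to 1920 in mock and 384 to 492 with scutellarin. Median intensities of the arrays lay between 144.8 and 162.3, and in all 3094 of the kept probe sets were called.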

How the data were processed

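The authors deposited 1 linear intensity per probe set and array, made with MAS5 per the submitters' processing notes (version and settings: not given in the sources used here). Trimmed means (2% at each end) lay between 493.9 and 495.1 on the 6 arrays, so the deposited intensities were already scaled; no detection calls entered. Of 22746 probe sets, 13513 named 1 gene, 503 several and 8730 none; by gene ID 13436 matched RefSeq (TAIR10.1), which gave names and gene order. No coordinates or sequences were used here.

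Values were log2-transformed and the lowest 30% by mean log2 were dropped, which left 15922 probe sets. Limma 3.58.1 (R 4.3.3, lmFit, then eBayes with trend) compared the groups in a two-sided test, adjusted by Benjamini-Hochberg over all probe sets kept. It was also run on data simulated from its own fitted variances, which cannot show how well that model holds for these arrays. Matplotlib 3.10.9 drew the figures. Replicates are labelled as biological replicates, and their number limits the precision. Members, lists and alternatives were chosen with earlier results of these data known. Genes were named by rule: all members, other family loci, up to 3 called genes per list, the 5 genes most like AT1G26390 and the genes beside a run with members. Genes inside a run, uncalled list genes and PAP85 were named after their values were seen. Alternatives changed the scaling (quantile, median), the filter (none, 50%), the offset (32 added), the variance prior (no trend, robust), the replicate block, the arrays (each left out) and the probe sets (those with a cross-hybridisation suffix removed).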

Additional observations from a re-analysis of the deposited data

How the results depend on the processing

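AT1G26390 was called lower under all 15 alternatives. These refit all or part of the arrays on which it was selected, so its calls are a description and not independent support. Of the 6 kept members, 2 were called lower, but 1 with no variance trend, 3 (with AT1G26380) with the replicate block, with 32 added or with the lowest 50% left out, and 1 to 3 without 1 array; the 0 called higher became 1 without scutellarin replicate 2 and was 0 to 1 over the arrays left out. Of the other family loci, 2 were called lower, 0 with the lowest 50% left out, 1 with no filter, 1 with the replicate block and 1 without any 1 array. The count called higher, 1, became 0 with the lowest 50% left out and was 0 to 1 without 1 array. Without scutellarin replicate 1 the gene counted was AT5G44380 (0.94), with AT1G30760 then below the filter. Over all probe sets 3094 were called, and 2035 to 2836 without 1 array, the lowest without mock replicate 2. Those called lower, 1450, were 862 with no variance trend and 801 to 1450 without 1 array. The median change of the members lay between -0.61 and -0.16 without 1 array. Signs turned, without passing the threshold, when 1 array was left out, for AT1G26420 (-0.22 to 0.075), AT4G20830 (-0.17 to 0.19), AT1G26450 (-0.17 to 0.11), TPP2 (-0.42 to 0.18), WRKY53 (-0.31 to 0.28), EFR (-0.32 to 0.13) and GRX480 (-0.098 to 0.20). The causes were not tested; the filters remove or keep low probe sets by construction. Same-numbered arrays did not pair (correlations of deviations -0.04, -0.09 and 0.11); with the block 2921 were called, and 2776 of these were among the 3094.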
